A study of Homo sapiens with 54 samples.

Results

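The ID proteins, the E proteins, the LIM-only (LMO) factors and their close partners were followed at the RNA level in a germinal-centre-type lymphoma line that carried wild-type or mutant STAT6. The set held ID2, ID3, TCF3, TCF4, TCF12, LMO2, LMO4, LYL1 and LDB1. Its members were picked by gene symbol, 9 of the 31835 genes in the count table, and all 9 had a row. The choice was made with earlier results of these data known, so the adjusted p-values below describe the fits over all genes and are no independent evidence for the set.

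E proteins (TCF3, TCF4 and TCF12) are basic helix-loop-helix transcription factors that bind the E box, a short DNA element, as dimers, and they are needed for B-cell development. ID proteins (ID2 and ID3) keep the helix-loop-helix but lack the basic region, so a dimer of an ID protein and an E protein does not bind DNA. LYL1 is a basic helix-loop-helix partner of E proteins. LMO2 and LMO4 are small adaptors made of LIM domains that bind LDB1, which joins such factors into larger complexes.

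The cells were OCI-Ly1, an established B-cell lymphoma line, stably transduced with a CMV-driven construct for Flag-tagged STAT6 that also carried ZsGreen. STAT6 is the transcription factor activated by interleukin-4 (IL-4). The construct encoded STAT6 WT, or STAT6 MUT with D419G, D419N or N421K in the DNA-binding domain. All cells kept their own STAT6, which in this line has a DNA-binding-domain variant, and all received IL-4 at 10 ng/ml for 20 min, after which it was washed out. RNA was taken 2, 4 and 8 h later, from 9 libraries of STAT6 WT and 3 of each mutant per time point, 54 libraries in all. Neither unstimulated nor empty-vector libraries were analysed here. The sample titles call the replicates biological without defining the term. The sources used here do not say how many separate transductions or cultures the replicates stand for. The p-values thus measure the spread between these libraries, which may be technical.

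The libraries held between 161518 and 2978715 unique molecular identifiers (UMIs, each standing for a captured RNA molecule), with a median of 885258.5. Totals under 0.5 of that median occurred in 8 libraries, 6 mutant and 2 STAT6 WT. B-cell markers were present (7 of 7 with a mean of at least 1 CPM, the usual scaling of counts by library total), as were 5 of 6 germinal-centre markers. Of 7 T-cell markers, CD3D, CD3E and CD2 had no UMIs in any library, while TRAC (mean 29.8 CPM) and CD247 (13.9 CPM) were present. The summed level of the 7 ran from 31.0 to 63.2 CPM in STAT6 WT and from 17.5 to 68.4 CPM in STAT6 MUT, and its part in the results was not tested. STAT6 itself, for which the cell's own RNA and the construct were not separated, was lower in STAT6 MUT across time points by a log2 fold change of -0.15 ± 0.04 (SE; edgeR quasi-likelihood adjusted p = 0.00982), with -0.30 ± 0.08 at 4 h (edgeR adjusted p = 0.0136). Its part in the results below was not tested. Each time point lay in plate rows of its own, so time and plate row cannot be told apart.

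The DNA just upstream of a RefSeq start site of 4 members is shown. It lets the differences below be read beside the letters that STAT factors and E proteins are known to bind. RefSeq promoters on GRCh38.p14 were found for 8 of the 9 members, LMO2 being the exception, with 22 entries in all since some genes have several start sites. The 250 bases before each start site were searched on both strands for TTCNNNNGAA, the spacing that STAT6 is known to prefer, for TTCNNNGAA, the spacing of other STAT factors, and for the E box CANNTG. None of the 3 motifs overlapped another in these 4 windows, and each reads the same on both strands. Capitals mark the matches. The ID3 window lies at chr1:23559502-23559751 on the minus strand, the LMO4 window (the entry at the gene's annotated start) at chr1:87328630-87328879 on the plus strand, the ID2 window at chr2:8681806-8682055 on the plus strand, and the TCF12 window (the most upstream of 5 entries) at chr15:56917840-56918089 on the plus strand. The ID2 window lies inside the annotated gene (chr2:8678845-8684461), downstream of its annotated start. The TCF12 window ends before that gene's annotated start at 56918623.
ID3: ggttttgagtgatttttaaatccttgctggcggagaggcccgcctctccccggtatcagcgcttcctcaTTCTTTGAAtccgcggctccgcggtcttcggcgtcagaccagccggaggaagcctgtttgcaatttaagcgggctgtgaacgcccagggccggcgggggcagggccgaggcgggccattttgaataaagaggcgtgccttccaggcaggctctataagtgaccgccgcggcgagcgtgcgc
LMO4: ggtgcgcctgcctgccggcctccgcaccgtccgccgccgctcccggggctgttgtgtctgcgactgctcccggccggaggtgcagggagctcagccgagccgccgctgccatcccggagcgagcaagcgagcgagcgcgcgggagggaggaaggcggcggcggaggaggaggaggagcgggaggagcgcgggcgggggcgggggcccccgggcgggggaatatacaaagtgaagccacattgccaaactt
ID2: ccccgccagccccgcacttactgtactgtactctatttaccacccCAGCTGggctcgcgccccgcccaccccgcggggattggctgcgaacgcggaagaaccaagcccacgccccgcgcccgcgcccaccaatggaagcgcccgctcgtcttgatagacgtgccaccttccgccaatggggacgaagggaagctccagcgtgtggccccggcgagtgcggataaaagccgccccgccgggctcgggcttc
TCF12: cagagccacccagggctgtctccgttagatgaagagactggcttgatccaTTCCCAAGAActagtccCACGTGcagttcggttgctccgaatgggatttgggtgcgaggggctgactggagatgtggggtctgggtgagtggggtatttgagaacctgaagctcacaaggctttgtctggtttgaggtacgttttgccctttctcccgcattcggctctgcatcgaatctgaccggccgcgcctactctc

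ID3 held TTCTTTGAA 181 bases before its start site, a match to TTCNNNGAA, which was present in 6.57% of all 35116 promoter windows of this length. In its most upstream entry, TCF12 held TTCCCAAGAA 200 bases before the start, a match to TTCNNNNGAA, present in 5.38% of windows, with an E box nearby. No other TCF12 entry held either STAT motif. TCF4, not shown, held TTCCCAGAA 188 bases before the start of an entry and TTCGAGGAA 198 bases before that of another, both matches to TTCNNNGAA. These shares are per window, and a gene with more entries had more chances of a match. The E box CANNTG occurred in 61.8% of windows and was present in the ID2 window but in neither the ID3 window nor the LMO4 window shown. Another LMO4 entry, not shown, held the E box CATTTG 131 bases before its start. These matches describe letters in the window and are not evidence of binding.

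The first comparison asked which members differed between STAT6 MUT and STAT6 WT over the whole time course. LMO4, ID2, TCF4 and TCF12 were higher in STAT6 MUT, while ID3 and LYL1 were lower, so the 2 ID genes moved in opposite directions. Of the 8 members that passed the count filter, 6 were called at an adjusted p under 0.05, 4 higher and 2 lower. Over all 9261 genes tested, 13.4% were called, 6.74% higher and 6.62% lower, and since the members were chosen with these results in view nothing is read from these shares against each other. The median log2 fold change of the 8 members was 0.13, against 0.00123 over all genes tested. In bulk RNA, a change in every cell and a change in the share of cells that express a gene cannot be told apart. Without the 8 libraries of low total, the same 6 members were called, with log2 fold changes from -0.56 for ID3 to 0.70 for LMO4.

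ID3 (ENSG00000117318; chr1:23557926-23559501, minus strand, GENCODE annotation on GRCh38) encodes an inhibitor of E proteins that is a recurrent mutation target in Burkitt lymphoma. At 2 h, its level in the 9 STAT6 WT libraries ran from 76.2 to 118 CPM with a median of 96.3. In STAT6 MUT at 2 h the lowest library was at 27.5, the median at 46.6 and the highest at 76.0 CPM. The groups did not overlap, the highest mutant library standing just under the lowest STAT6 WT library. Such a complete separation downwards was found for 0.370% of the genes tested at 2 h. The 3 libraries of D419G were at 27.5, 46.8 and 47.8 CPM, those of D419N at 46.6, 49.0 and 76.0 CPM, and those of N421K at 36.4, 40.0 and 41.9 CPM. This is a log2 fold change of -1.11 ± 0.10 (SE, 9 libraries a group, edgeR adjusted p = 8.09e-13), the second smallest p of 8651 genes. At this time the median library held 73 ID3 UMIs in STAT6 WT and 40 in STAT6 MUT.

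By 4 h the STAT6 MUT libraries had come close to STAT6 WT. STAT6 WT ranged from 87.9 to 109.7 CPM (median 92.0) and STAT6 MUT from 65.2 to 110.3 CPM (median 77.9). Of the 9 mutant libraries, 7 were still below every STAT6 WT library and 1 was above them all. The log2 fold change was -0.29 ± 0.09 (edgeR adjusted p = 0.0432), a call kept in 9 of 20 alternatives (adjusted p up to 0.431). At 8 h the median was 115 CPM in STAT6 WT and 95.1 CPM in STAT6 MUT, with ranges from 88.0 to 127 and from 81.4 to 132 CPM. That difference of -0.26 ± 0.08 in log2 was not called (edgeR adjusted p = 0.102).

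ID2 (ENSG00000115738; chr2:8678845-8684461, plus strand) encodes the second E-protein inhibitor, and its course was not tested against that of ID3. At 2 h the groups overlapped widely, from 85.0 to 130 CPM in STAT6 WT (median 112) and from 91.1 to 156 CPM in STAT6 MUT (median 129). The difference of 0.11 ± 0.08 in log2 was not called (edgeR adjusted p = 0.498). At 4 h STAT6 WT lay between 98.8 and 139 CPM (median 118) and STAT6 MUT between 114 and 210.3 CPM (median 142), with 6 of 9 mutant libraries above every STAT6 WT library. This gave 0.43 ± 0.09 in log2 (edgeR adjusted p = 0.00211). At 8 h STAT6 WT ran from 101 to 138 CPM (median 114), STAT6 MUT from 119 to 191 CPM (median 153), and 7 of 9 mutant libraries stood above all STAT6 WT libraries. The log2 fold change was 0.48 ± 0.08 (edgeR adjusted p = 0.000166), and ID2 was the only member called at 8 h with all libraries, a call kept in 19 of 20 alternatives (adjusted p up to 0.141). Without those of low total, ID3 was called as well (edgeR adjusted p = 0.0451). The antisense gene ID2-AS1 overlaps ID2 and had 66 UMIs in all libraries together, against 7042 for ID2; whether counting used strand is not stated.

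**Figure D1:**
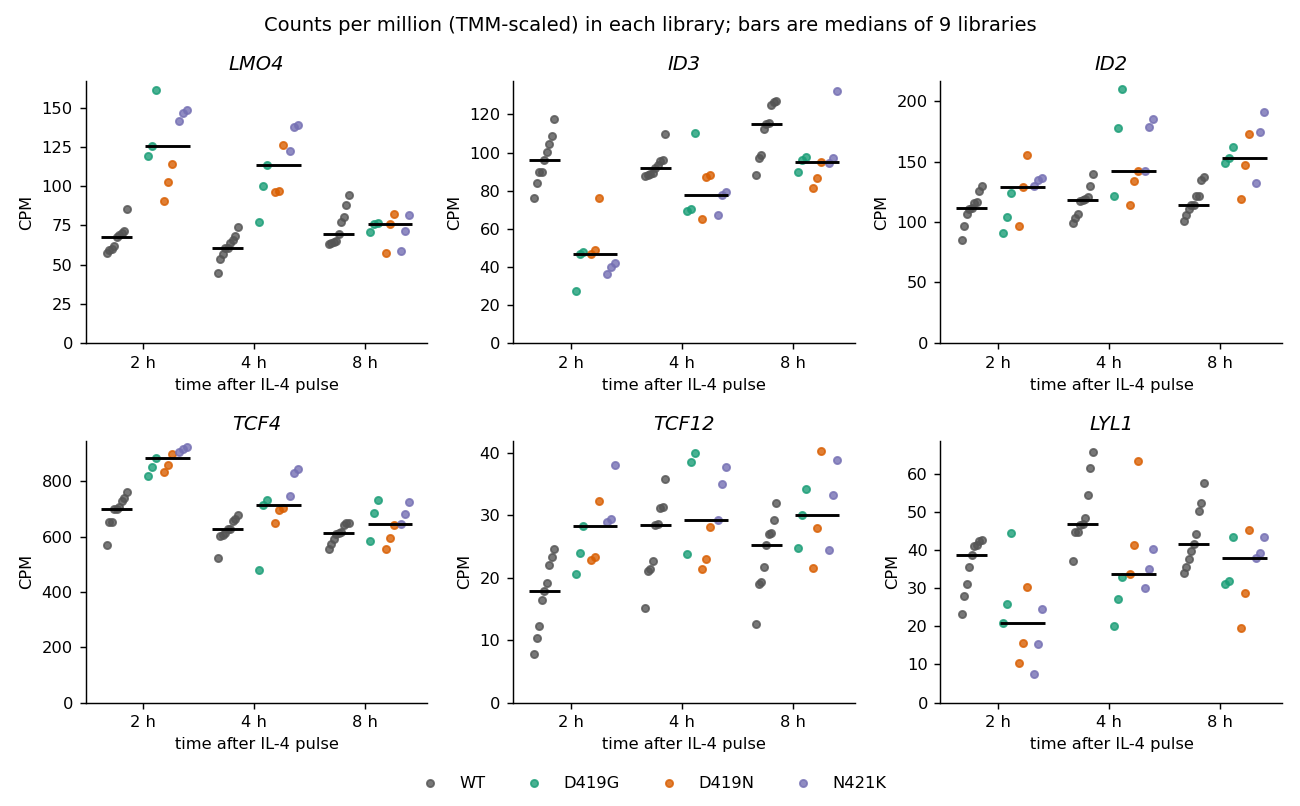
CPM (vertical axes, linear from 0) of 6 members in each of the 54 libraries, by time after the IL-4 pulse and STAT6 genotype; points are libraries and black bars the medians of the 9 STAT6 WT and the 9 STAT6 MUT libraries. LMO4 at 2 and 4 h and TCF4 at 2 h lie above, and ID3 at 2 h below, every STAT6 WT library, while the 2 groups overlap for all 6 genes at 8 h.

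Among the E proteins, TCF4 and TCF12 were higher in STAT6 MUT and TCF3 was not called. TCF4 (ENSG00000196628; chr18:55222185-55664787, minus strand) encodes E2-2, which is known for its role in plasmacytoid dendritic cells and in B-cell lymphoma. At 2 h its level was between 570.1 and 763 CPM in STAT6 WT (median 701) and between 822 and 926 CPM in STAT6 MUT (median 886), with no overlap. Complete separation upwards was found for 0.312% of genes tested at 2 h. In log2 the difference was 0.33 ± 0.05 at 2 h (edgeR adjusted p = 3.67e-06). It was 0.22 ± 0.06 at 4 h (edgeR adjusted p = 0.0318) and 0.10 ± 0.06 at 8 h, where it was not called (edgeR adjusted p = 0.468). At 4 h 7 of 9 mutant libraries lay above every STAT6 WT library, while a D419G library of low total lay below them all at 479.8 CPM. The call at 4 h was kept in 10 of 20 alternatives, with adjusted p up to 0.545.

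TCF12 (ENSG00000140262; chr15:56918623-57299281, plus strand) encodes HEB, and its counts were low, with a median of 14 UMIs per STAT6 WT library and 27 per STAT6 MUT library at 2 h. At that time STAT6 WT ranged from 7.74 to 24.6 CPM (median 17.8) and STAT6 MUT from 20.6 to 38.1 CPM (median 28.3). All 9 mutant libraries were above the STAT6 WT median and 5 above every STAT6 WT library. TCF12 was called at 2 h with a log2 fold change of 0.59 ± 0.15 (edgeR adjusted p = 0.00557) but not at 4 h (0.20 ± 0.15, edgeR adjusted p = 0.615) or 8 h (0.32 ± 0.14, edgeR adjusted p = 0.3). Without the N421K line the call across time points was lost (log2 fold change 0.24, edgeR adjusted p = 0.166).

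TCF3 (ENSG00000071564; chr19:1609291-1652615, minus strand) encodes E12 and E47 by alternative splicing, which gene counts do not separate. Across time points it was lower in STAT6 MUT by a log2 fold change of -0.09 ± 0.03 (SE), just short of the threshold (edgeR adjusted p = 0.055, range 0.0137 to 0.3 over the alternatives). Its medians were 372 CPM in STAT6 WT and 348 CPM in STAT6 MUT at 2 h, 354 and 318 CPM at 4 h, and 429 and 426 CPM at 8 h. At every time the STAT6 WT and STAT6 MUT libraries overlapped.

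LYL1 (ENSG00000104903; chr19:13099033-13103161, minus strand) was first found through a translocation in T-cell leukaemia. At 2 h its STAT6 WT libraries lay between 23.3 and 42.7 CPM (median 38.7) and its STAT6 MUT libraries between 7.63 and 44.7 CPM (median 20.9). The groups overlapped, with 5 of 9 mutant libraries below every STAT6 WT library and 1 of D419G above them all. LYL1 was thus lower at 2 h by a log2 fold change of -0.85 ± 0.17 (edgeR adjusted p = 0.000292). At 4 h the medians were 47.0 CPM in STAT6 WT and 33.9 CPM in STAT6 MUT, and the log2 fold change of -0.43 ± 0.14 was not called (edgeR adjusted p = 0.0704). At 8 h it was -0.17 ± 0.13 (edgeR adjusted p = 0.592). The median mutant library held 21 LYL1 UMIs at 2 h, which limits the precision of single values.

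LMO4 (ENSG00000143013; chr1:87328880-87348923, plus strand) encodes a LIM-only adaptor that binds LDB1 and had the smallest p among the members across time points. At 2 h STAT6 WT ranged from 57.6 to 85.4 CPM (median 67.6) and STAT6 MUT from 90.8 to 161 CPM (median 126). At 4 h STAT6 WT ranged from 44.8 to 74.2 CPM (median 60.8) and STAT6 MUT from 77.2 to 139 CPM (median 114). All 9 mutant libraries lay above every STAT6 WT library at both times, a separation found for 0.312% of genes at 2 h and 0.267% at 4 h. The log2 fold changes were 0.96 ± 0.09 at 2 h (edgeR adjusted p = 3.92e-12) and 0.92 ± 0.10 at 4 h (edgeR adjusted p = 2.25e-09). By 8 h the difference was no longer seen. STAT6 WT then lay between 63.4 and 94.5 CPM (median 69.8) and STAT6 MUT between 57.6 and 82.2 CPM (median 75.6), with no mutant library above the highest STAT6 WT library. The log2 fold change at 8 h was 0.06 ± 0.09, with a 95% confidence interval from -0.12 to 0.24 (edgeR adjusted p = 0.855).

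In single lines, LMO4 at 2 h was at 119, 126 and 161 CPM in D419G, at 90.8, 103 and 114 CPM in D419N, and at 142, 147 and 149 CPM in N421K. At 4 h the D419G libraries were at 77.2, 100.1 and 114 CPM, the D419N libraries at 96.1, 96.8 and 127 CPM, and the N421K libraries at 123, 138 and 139 CPM. At both times each library of each line stood above the highest STAT6 WT library. At 8 h the 3 lines had means of 74.2, 72.0 and 70.7 CPM, next to 74.0 CPM in STAT6 WT.

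LMO2 (ENSG00000135363), a germinal-centre gene in many lymphomas, was close to undetected, with 5 UMIs in the 54 libraries, 3 in STAT6 WT and 2 in STAT6 MUT. It failed the count filter, and an exact permutation test at each of the 3 times gave p = 1 (two-sided, unadjusted). At 2 h and at 4 h the only UMI lay in a single library, so the test could give no other value and decides nothing there. No difference was detectable at this depth. LDB1 (ENSG00000198728; chr10:102106489-102120368, minus strand), the scaffold that LMO proteins bind, was at a median of 15.4 CPM in STAT6 WT and 16.1 CPM in STAT6 MUT over all libraries. Its log2 fold change was 0.04 ± 0.11 (95% confidence interval from -0.17 to 0.25, edgeR adjusted p = 0.868), with a median of 14 UMIs per library.

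Read by time point, 5 of 8 members were called at 2 h, 4 at 4 h and 1 at 8 h. Over all genes tested the share called also fell, from 8.59% at 2 h to 3.97% at 4 h and 1.44% at 8 h. Within plate rows, the difference in mean log2 CPM for LMO4 was 0.87 and 0.97 in the 2 rows of 2 h, 0.86 and 0.71 in those of 4 h, and 0.01 and -0.11 in those of 8 h. For ID3 it was -0.97 in 1 row and -1.28 in the other at 2 h, then -0.20 with -0.34 at 4 h and -0.21 with -0.19 at 8 h. ID2 differed by 0.21 in 1 row and -0.02 in the other at 2 h, by 0.44 against 0.32 at 4 h, and by 0.48 against 0.20 at 8 h. LMO4 and ID3 kept their direction in both rows at 2 and 4 h.

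**Figure D2:**
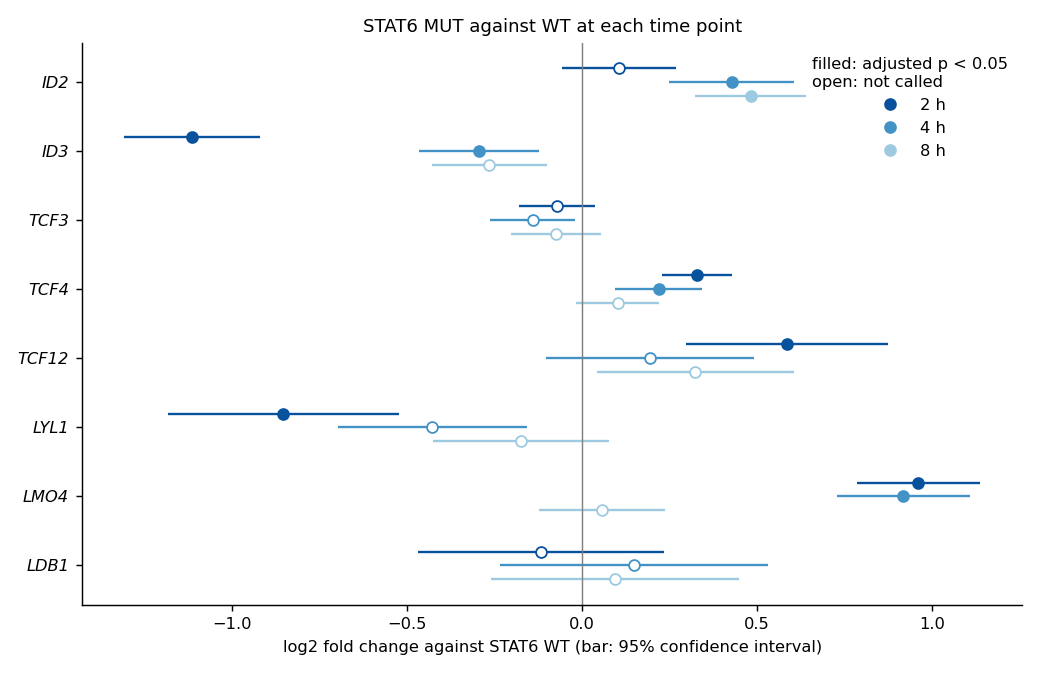
Log2 fold change of STAT6 MUT against STAT6 WT (horizontal axis) for the 8 tested members at 2, 4 and 8 h, with 95% confidence intervals; filled points passed an adjusted p of 0.05 and open points did not. ID3 (-1.11), LYL1 (-0.85) and LMO4 (0.96) were furthest from 0 at 2 h, and ID2 alone was called at 8 h.

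Whether the genotype difference itself changed with time was tested by the interaction of genotype and time point. ID3 and LMO4 were called, each with an edgeR adjusted p of 9.4e-07, while 0.957% of 9507 genes were called. For ID3 the difference rose by 0.82 ± 0.13 in log2 from 2 h to 4 h (edgeR adjusted p = 1.62e-05, where 0.421% of genes were called) and moved by 0.02 ± 0.12 from 4 h to 8 h (edgeR adjusted p = 1). For LMO4 it moved by -0.04 ± 0.13 from 2 h to 4 h (edgeR adjusted p = 0.983) and by -0.87 ± 0.14 from 4 h to 8 h (edgeR adjusted p = 0.00014). The latter had the smallest p of all genes in that contrast, where 0.0316% of genes were called. The change was thus called from 2 h to 4 h for ID3 and from 4 h to 8 h for LMO4. For ID2 the interaction was not called (edgeR adjusted p = 0.206), nor was it for LYL1 (edgeR adjusted p = 0.268). It was not called for TCF4 (edgeR adjusted p = 0.304) or TCF12 (edgeR adjusted p = 0.647) either. A different effect over time was thus not shown for ID2, LYL1, TCF4 or TCF12.

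The time course was also read within each genotype, with plate row and time inseparable. In STAT6 WT from 2 h to 8 h, ID3 rose by 0.24 ± 0.08 (edgeR adjusted p = 0.00985), TCF3 by 0.25 ± 0.06 (edgeR adjusted p = 0.000263) and LYL1 by 0.34 ± 0.12 (edgeR adjusted p = 0.0266), and TCF4 fell by 0.19 on the log2 scale (edgeR adjusted p = 0.00267). That made 4 of 8 members, with 30.7% of all genes tested called. The LYL1 call was kept in 10 of 16 alternatives (adjusted p up to 0.191). In STAT6 MUT over the same interval, 6 of 8 were called, with 34.1% of all genes. There ID3 rose by 1.10 ± 0.10 (edgeR adjusted p = 4.11e-13), LYL1 by 1.03 ± 0.19 (edgeR adjusted p = 1.11e-05), ID2 by 0.40 ± 0.09 (edgeR adjusted p = 0.000337) and TCF3 by 0.25 ± 0.06 (edgeR adjusted p = 0.000952). TCF4 fell by 0.41 on the log2 scale (edgeR adjusted p = 2.37e-07) and LMO4 by 0.78 (edgeR adjusted p = 3.38e-10).

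Shorter intervals placed these changes. From 2 h to 4 h in STAT6 WT, LYL1 rose by 0.61 ± 0.12 (edgeR adjusted p = 0.000206) and TCF4 fell by 0.17 on the log2 scale (edgeR adjusted p = 0.0211), 2 of 8 members with 13.0% of all genes. In STAT6 MUT, ID3 rose by 0.78 ± 0.10 (edgeR adjusted p = 1.1e-07), LYL1 by 1.02 ± 0.18 (edgeR adjusted p = 5.76e-05) and ID2 by 0.38 ± 0.09 (edgeR adjusted p = 0.0023), and TCF4 fell by 0.28 (edgeR adjusted p = 0.00106), 4 of 8 with 8.43% of all genes. From 4 h to 8 h in STAT6 WT, ID3 rose by 0.28 (edgeR adjusted p = 0.0146) and TCF3 by 0.28 (edgeR adjusted p = 0.000437), 2 of 8 with 5.88% of all genes. In STAT6 MUT, ID3 rose by 0.32 (edgeR adjusted p = 0.0205) and TCF3 by 0.34 (edgeR adjusted p = 0.000168), the ID3 call being kept in 8 of 13 alternatives (adjusted p up to 0.321). There LMO4 fell by 0.65 ± 0.09 (edgeR adjusted p = 2.69e-06), which made 3 of 8 with 11.9% of all genes.

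Each mutant was then set against STAT6 WT in a single fit of the 4 lines. ID3 and LMO4 were called in all 3 mutants. For LMO4 the log2 fold change was 0.60 ± 0.10 in D419G (edgeR adjusted p = 7.02e-06), 0.54 ± 0.10 in D419N (edgeR adjusted p = 8.48e-05) and 0.83 ± 0.08 in N421K (edgeR adjusted p = 1.97e-13). For ID3 it was -0.52 ± 0.10, -0.49 ± 0.10 and -0.56 ± 0.09, with edgeR adjusted p-values of 0.00012, 0.00052 and 5.64e-07. ID2 was called in D419G (0.32 ± 0.08, edgeR adjusted p = 0.00411) and N421K (0.47 ± 0.07, edgeR adjusted p = 3.62e-08) and was at 0.19 ± 0.08 in D419N (edgeR adjusted p = 0.222).

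TCF4 was at 0.18 ± 0.05 in D419G (edgeR adjusted p = 0.0116), 0.15 ± 0.05 in D419N (edgeR adjusted p = 0.0876) and 0.32 ± 0.05 in N421K (edgeR adjusted p = 2.45e-08). LYL1 was at -0.46 ± 0.15, -0.38 ± 0.14 and -0.50 ± 0.13 in the same order, with edgeR adjusted p-values of 0.0437, 0.143 and 0.00301. The LYL1 call in D419G was kept in 16 of 27 alternatives (adjusted p up to 0.417). TCF12 was called in N421K alone of the 3 lines (0.53 ± 0.11, edgeR adjusted p = 0.000115), and TCF3 in D419N alone (-0.17 ± 0.05, edgeR adjusted p = 0.048, a call kept in 15 of 27 alternatives). For D419G 5 of 8 members were called (5.38% of all genes), for D419N 3 (2.75% of all genes) and for N421K 6 (13.7% of all genes). At 4 h, 2 of the 3 D419G libraries had low totals, and leaving out D419G replicate 2 took its count from 5 to 2, with ID3 and LMO4 remaining.

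A call in 1 line and not in another does not show that they differ, and the difference among the 3 mutants was tested directly. No member was called in the joint edgeR test (adjusted p from 0.122 to 0.953), where 2.39% of genes were called and 3 members had an unadjusted p under 0.05. DESeq2 called 1 member there, TCF4. The fit gave each line 1 difference over all time points, so differences among the mutants at a single time were not tested. In pairs, no member was called by edgeR, while the share of genes called was 0.196% for D419G against D419N, 1.32% for D419G against N421K and 1.88% for D419N against N421K. At an unadjusted p under 0.05 the members numbered 0, 2 and 4 in the same order, and DESeq2 called TCF4 in the last pair. The lowest adjusted p belonged to ID2, which was higher in N421K than in D419N by 0.29 ± 0.09 (95% confidence interval from 0.11 to 0.46, edgeR adjusted p = 0.0677). For ID3 the difference between N421K and D419N was -0.07 ± 0.12, with an interval from -0.31 to 0.16 (edgeR adjusted p = 0.86).

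**Figure D3:**
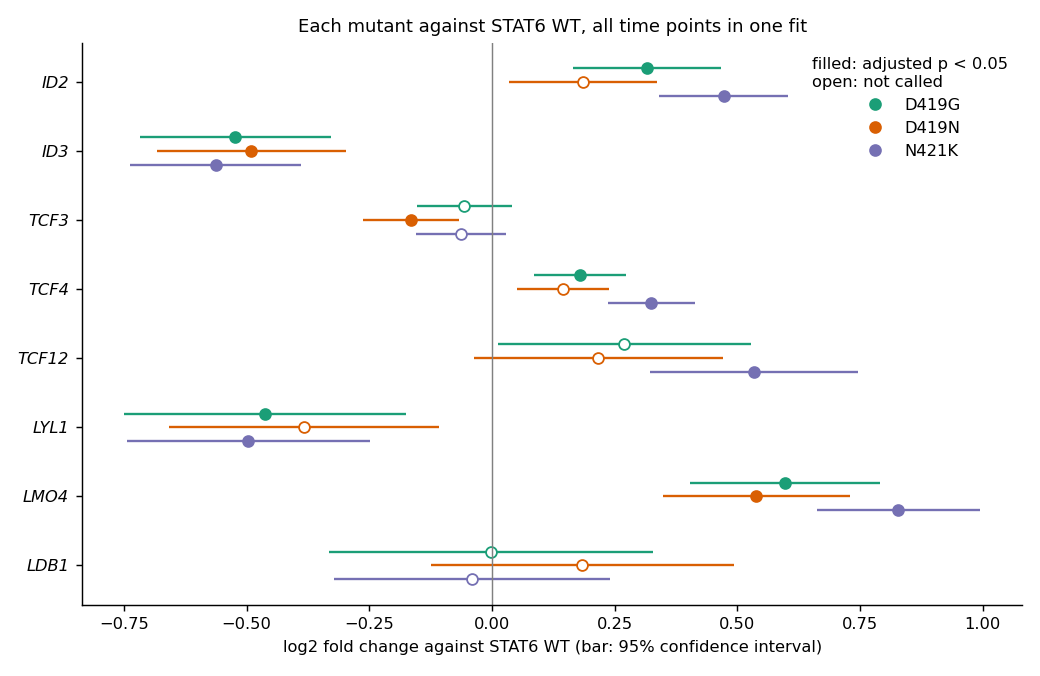
Log2 fold change of D419G, D419N and N421K against STAT6 WT (horizontal axis) for the 8 tested members, from a fit over all time points, with 95% confidence intervals; filled points passed an adjusted p of 0.05 and open points did not. ID3 lies near -0.5 and LMO4 between 0.54 and 0.83 in the 3 mutants, and the intervals of the mutants overlap for every member but ID2, where those of D419N and N421K lie next to each other.

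The balance of inhibitors and E proteins was described as the share of ID2 and ID3 among the UMIs of ID2, ID3, TCF3, TCF4 and TCF12, which does not depend on the scaling between libraries. It was set by the same counts as above and carries no test. At 2 h the share was between 14.3% and 19.0% in STAT6 WT (median 16.0%) and between 9.71% and 15.6% in STAT6 MUT (median 11.6%). At 2 h the mutant range overlapped the STAT6 WT range only through a D419N library of low total, at 15.6%, and without the low totals the highest mutant library was at 12.9%. At 4 h the medians were 17.2% and 17.4%. At 8 h they were 17.8% and 18.7%, with ranges from 16.0% to 19.1% and from 17.3% to 21.5%. Within STAT6 MUT at 4 h, the D419G libraries, 2 of them of low total, lay at 18.7%, 20.0% and 21.2%. The share compares molecules counted at their 3′ ends and says nothing of protein.

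**Figure D4:**
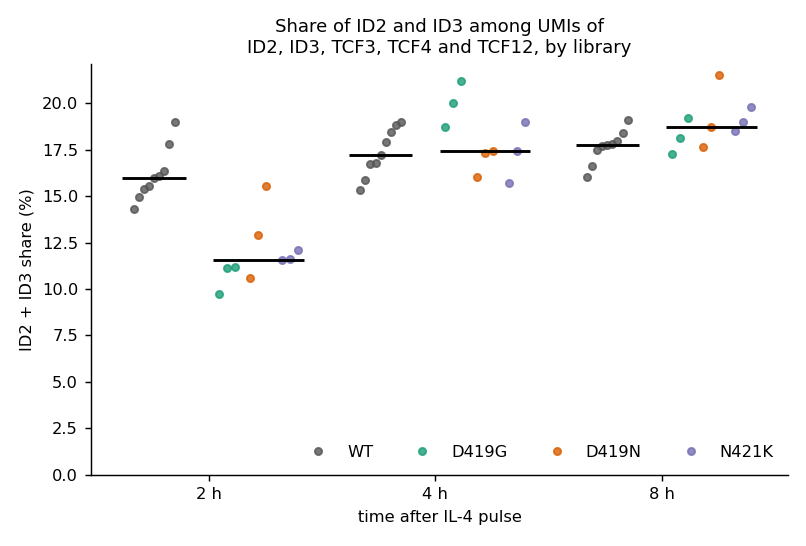
Share of ID2 and ID3 (percent, linear axis from 0) among the UMIs of ID2, ID3, TCF3, TCF4 and TCF12 in each of the 54 libraries, by time after the IL-4 pulse and STAT6 genotype; bars are medians of 9 libraries. STAT6 MUT lies lower at 2 h (median 11.6% against 16.0%) and the medians are within 1 percentage point of each other at 4 and 8 h.

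The genes whose log2 CPM ran most like those of the 3 members with the smallest p were looked up among 6927 genes with a mean of at least 20 UMIs, over the 54 libraries. LMO4 ran most like APOL6 (Pearson r = 0.776), TCEANC2 (r = 0.691) and TRIB2 (r = 0.686). ID3 ran most like SNX22 (r = 0.786), CCDC69 (r = 0.769) and SPIB (r = 0.761), the last a B-cell transcription factor. ID2 ran most like MX1 (r = 0.723), SAMD9 (r = 0.677) and RNF213 (r = 0.656). The libraries share genotype, time and depth, and these values are descriptions with no test.

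Related genes were read from 4 lists of the same fit across time points. Of 20 known partners of these factors (other ID and LMO genes, LDB2, SSBP genes, TAL and GATA factors, RUNX1 and its co-factors), 7 passed the count filter and 0 were called by edgeR or DESeq2, with 1 at an unadjusted p under 0.05 in edgeR. Their median log2 fold change was 0.04. At 2 h alone, edgeR called 1 of 6 partners tested, SSBP2 (-0.40 ± 0.12, edgeR adjusted p = 0.0282), with 8.59% of all genes called. In N421K it called SSBP4 (-0.22 ± 0.07, edgeR adjusted p = 0.0232), with 13.7% of all genes called. Of 14 other basic helix-loop-helix genes, 2 passed the filter and 0 were called by edgeR, 1 having an unadjusted p under 0.05, while DESeq2 tested 5 and called BHLHE40. In the other edgeR fits HES6 was called lower at 2 h (-0.37 ± 0.11, edgeR adjusted p = 0.0305) and in N421K (-0.32 ± 0.10, edgeR adjusted p = 0.0236). Among 23 genes known as E-protein targets in B cells, 17 were tested, 1 was higher and 4 were lower in STAT6 MUT, next to 6.74% higher and 6.62% lower over all genes, and the median was -0.03 (by DESeq2 1 was higher and 6 were lower of 19). Those lower were the signalling chains of the B-cell receptor CD79A (-0.25 ± 0.04, edgeR adjusted p = 6.09e-07) and CD79B (-0.28 ± 0.05, edgeR adjusted p = 9e-06), the surrogate light chain gene VPREB3 (-0.21 ± 0.04, edgeR adjusted p = 5.99e-06) and the kinase BLK (-0.34 ± 0.09, edgeR adjusted p = 0.00332). CD79A and CD79B are also on the list of B-cell markers, whose summed level ran from 3350 to 4210 CPM in STAT6 WT and from 2840 to 4250 CPM in STAT6 MUT. The 1 that was higher was the chemokine receptor CXCR4 (0.21 ± 0.06, edgeR adjusted p = 0.00995). For CXCR4 the mutants differed from each other in the joint edgeR test (adjusted p = 0.00127). It was higher in D419G (0.27 ± 0.08, edgeR adjusted p = 0.0222) and N421K (0.37 ± 0.07, edgeR adjusted p = 2.47e-05). In D419N it was not called (-0.10 ± 0.08, edgeR adjusted p = 0.654).

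Of 18 genes of the SMAD pathway and other known regulators of ID genes, 9 were tested, 2 were higher and 1 was lower, next to 13.4% called in either direction over all genes, with a median of 0.02. SMAD1, a mediator of bone morphogenetic protein signals, was higher by 0.36 ± 0.05 (edgeR adjusted p = 1.68e-08), SMAD2 was higher by 0.17 ± 0.05 (edgeR adjusted p = 0.016), and SMAD3 was lower by 0.18 on the log2 scale (edgeR adjusted p = 0.0267). The medians of all 4 lists lay within 0.05 of the median of all genes tested.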

How the data were processed

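OCI-Ly1 cells expressing STAT6 WT, D419G, D419N or N421K gave 54 RNA libraries at 2, 4 and 8 h after the IL-4 pulse. Libraries were of the prime-seq kind, a bulk method that counts 3′ ends, and were read on a HiSeq instrument. The values deposited by the authors are raw UMI counts for each gene in each well, from the Drop-seq pipeline. Per the labels the build is hg38. Which aligner and annotation were used, and whether counting was stranded, is not given in the sources used here.

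Members and lists were chosen with earlier results of these data known. Counts were tested with edgeR (version 4.0.16, R 4.3.3): TMM scaling, filterByExpr, quasi-likelihood F tests and Benjamini-Hochberg adjustment over all genes tested, with a threshold of 0.05. STAT6 MUT pooled the 3 mutants. The fit across time points used all libraries with time as covariate, each time point was fitted alone, the 4 lines were fitted together with time, and the interaction used the 6 groups of genotype and time. The study used DESeq2 (here version 1.42.0), which with limma-voom (limma 3.58.1) was an alternative. CPM used library totals times TMM factors, with a prior count of 2 on the log2 scale. LMO2, below the filter, had an exact permutation test. The scripts were tested on simulated data. The plan was to name, of each related list, the up to 4 called genes with the smallest p. CXCR4, beyond that number, and BHLHE40, called by DESeq2 alone, are named as well. CD3D, CD3E, CD2, TRAC, CD247, ID2-AS1, SSBP2, SSBP4 and HES6 were named after their values were seen. Gene positions come from GENCODE (release 44), promoters from RefSeq.

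Totals of 161518 to 2978715 UMIs set the precision. Pairs of libraries of 1 group all differed by more than sampling noise (lowest chi-square per degree of freedom 1.07).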

Additional observations from a re-analysis of the deposited data

Results flagged for a closer look

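The STAT6 MUT against STAT6 WT difference changed between time points for ID3 (edgeR adjusted p of the interaction 9.4e-07) and for LMO4 (edgeR adjusted p of the interaction 9.4e-07). Over 19 alternatives these adjusted p-values reached at most 0.00251 for ID3 and 0.00135 for LMO4.

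In 54 groups of 9 libraries (8 members and the ID share, by genotype and time), a single library stood apart from its group by Dixon's criterion in 7, where chance gives about 1 in 20. ID3 stood apart in 3 of them. Its highest STAT6 MUT library at 2 h was D419N replicate 2 at 76.0 CPM, from 274646 UMIs in total. The highest STAT6 WT library at 4 h was replicate 2 at 109.7 CPM. The highest STAT6 MUT library at 8 h was N421K replicate 2 at 132 CPM, from 191586 UMIs in total. TCF3 was highest in D419G replicate 3 at 4 h, at 408 CPM from 175878 UMIs in total. TCF4 was lowest in STAT6 WT replicate 3 at 4 h, at 524 CPM. LMO4 was highest among STAT6 WT libraries at 2 h in replicate 6, at 85.4 CPM from 332236 UMIs in total. LYL1 was highest among STAT6 MUT libraries at 4 h in D419N replicate 1, at 63.4 CPM. Of these 7 libraries, 4 had totals under 0.5 of the median, and the part of depth was not tested.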

How the results depend on the processing

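Across time points the count of members called stayed between 5 and 7 under all 21 alternatives, at 2 h between 4 and 5, and in N421K at 6. A member called in a comparison kept its direction in each alternative run for it. At 4 h the count of 4 fell to 2 with DESeq2 and to 1 without the N421K line. At 8 h the count of 1 became 2 without low totals. The difference among the mutants had 1 member with DESeq2 (TCF4) and 1 without low totals (ID2), and N421K against D419N had 1 with DESeq2 and 2 without low totals. Without the count filter, 4 h against 2 h in STAT6 WT had 1, and without the N421K line, 8 h against 4 h in STAT6 MUT had 1. With 1 replicate left out, the counts ran from 1 to 4 at 4 h, from 2 to 5 in D419G (2 without replicate 1, without replicate 2 or without D419G replicate 2), from 1 to 3 and from 1 to 2 for 4 h against 2 h and 8 h against 4 h in STAT6 WT, the former 1 without replicates 2 or 9 and the latter 1 without replicates 6 or 8. At 4 h, leaving out replicate 1, 5 or 6 left 2 and replicate 2 left 1.

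The sources name no batch or day that a replicate number marks. Between libraries of 2 lines with the same number and time, the correlations of deviations had a median of 0.00195, with 8 of 54 over 0.1. With different numbers the median was -0.000111, with 23 of 270 over 0.1. Such correlations over many genes cannot settle whether the numbers pair the libraries, and the main fits did not pair them. As a setting only, the fit with a replicate block compares only numbers that STAT6 WT and STAT6 MUT share. Under the replicate block the members called were 1 at 4 h, 0 at 8 h (edgeR; without it 1) and 1 for N421K against D419N, and TCF12 was lost and TCF3 gained across time points. Genes called under it numbered 638 across time points (1237 without it), 212 at 2 h (743), 78 at 4 h (342), 31 at 8 h (127), 325 in D419G (522) and 151 in D419N (267).

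Without the N421K line the genes called were 586 across time points, 291 at 2 h, 93 at 4 h, 74 at 8 h and 43 for the interaction (91 with it), and within STAT6 MUT 282 for 4 h against 2 h (790), 348 for 8 h against 4 h (1116) and 2116 for 8 h against 2 h (3193). DESeq2 called 485 at 2 h, and the fit without a count filter 239 at 8 h. Without the D419N line the STAT6 MUT fits called 495 for 4 h against 2 h and 742 for 8 h against 4 h, and without the D419G line 674 for the latter. D419G against D419N called 19, and 60 with DESeq2, 9 without low totals and 0 with counts summed over the times for each line and number. Such sums treat a number as 1 culture, which the sources do not state and which the correlations between times for the same line and number (median -0.00397) do not show. With 1 replicate left out, genes called fell to as few as 813 across time points, 430 at 2 h, 162 at 4 h and 53 at 8 h (highest 300), 216 in D419G, 139 in D419N and 727 in N421K.

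The sign turned only for values that were not called. LDB1 across time points was at -0.11 under the replicate block, at -0.027 without the D419N line, at -0.010 and -0.015 without replicates 6 and 9, and at most 0.12 with 1 replicate left out. ID2 at 2 h was at -0.0020 without the N421K line, LMO4 at 8 h at -0.078 under the replicate block, and TCF3 in D419G at 0.0054 without replicate 2 and 0.0035 without D419G replicate 2 (lowest with 1 replicate left out -0.097). The causes of these moves were not tested. With plate row in the fit, the same 6 members were called across time points, an alternative chosen after seeing the data. Members with few UMIs (TCF12, LYL1 and LDB1) carry the widest errors, and LMO2 is below what this depth can compare.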
